A study of Mus musculus with 15 samples.

Results

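Gene expression in the forebrain was compared with that in the dorsal midbrain of the mouse embryo at stage E12.5. The comparison used 6 of the 15 RNA-seq libraries of the study, namely the 3 labelled forebrain and the 3 labelled dorsal midbrain, chosen by their labels. It covered the 12982 of 24264 genes that had at least 1 RPKM (reads per kilobase of gene model, scaled to the mapped reads of the library) in at least 3 of the 6 libraries. The other 9 libraries came from hindbrain, alar plate and ventral midbrain and were used only where named. All animals, in both groups, were of strain C57bl/6, were untreated as far as the labels say, and carried GFP driven by the promoter of tyrosine hydroxylase (Th), the first enzyme of dopamine synthesis. Each piece of tissue was dissected by hand under a microscope, and 200 ng of RNA went into a cDNA library. The labels do not say whether libraries of a region came from separate embryos or litters, or where the borders of a dissection lay. The p-values therefore measure only how far these samples spread, and that spread may be technical, at least between libraries 1 and 2 of a region. Library 3 of each region differed from them in sex-linked genes, as given below. Values below are RPKM, listed in the order of library number (1, 2, 3), and differences are forebrain minus dorsal midbrain in log2(RPKM + 1). On that scale the change of a gene with few reads comes out too small.

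The forebrain gives rise to the telencephalon (cortex and basal ganglia), the diencephalon (thalamus and its neighbours) and the hypothalamus, whereas the dorsal midbrain forms the tectum, which becomes the superior and inferior colliculi. In the neural tube, Sonic hedgehog from the ventral midline induces ventral progenitor factors such as Nkx2-2 and Olig2, while Wnt and BMP signals from the roof plate support dorsal fates marked by Pax3 and Pax7. Progenitors divide next to the ventricle and leave the cell cycle as neurons, so a tissue piece holds dividing cells, young neurons, vessels, blood and meningeal cells in proportions that bulk RNA does not separate.

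The libraries of each region were not equally alike. Across the 12982 genes, Pearson r on the log2(RPKM + 1) scale was 0.9904 between forebrain 2 and 3 and 0.9942 between dorsal midbrain 1 and 2. Forebrain 1 had an r of 0.9624 and 0.9583 with the other forebrain libraries but 0.9766 with dorsal midbrain 3. Dorsal midbrain 3 had an r of 0.9641 and 0.9684 with the other dorsal midbrain libraries. Forebrain 1 and dorsal midbrain 3 were thus each more like the other than like any library of their own region. Likeness across regions was not confined to this pair. Dorsal midbrain 3 had an r of 0.9768 with alar plate 1. Forebrain 2 and 3 had an r of 0.978 and 0.9787 with hindbrain 2, higher than with forebrain 1. These correlations are across genes, which are not independent replicates, and even forebrain 3 and dorsal midbrain 1 had an r of 0.8832. What made libraries of different regions alike was not tested. Of 1920 genes at least 2-fold apart between the mean of forebrain 2 and 3 and that of dorsal midbrain 1 and 2, the median position of forebrain 1 was 57.7% of the way from the dorsal midbrain mean (0%) to the forebrain mean (100%), with quartiles of 41.7% and 76.6%. Dorsal midbrain 3 lay at 43.9%, with quartiles of 32.2% and 54.7%. Depth was similar throughout, with 9010132 to 11858191 reads in gene models recovered from the RPKM values of each of the 6 libraries. At this depth 3 reads in a gene of median length were worth 0.0856 to 0.112 RPKM, and lower values were read as not detectable, a limit for counting error only.

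The region labels were checked against marker genes. Tbr1 (cortical neurons) was at most 0.101 RPKM in the forebrain libraries, Lhx6 (migrating cortical interneurons) at most 0.0448 RPKM, and Lhx8 and Hesx1 were listed at 0 in all 3. The eye field and hypothalamic genes Rax, Six6 and Vax1 were also listed at 0 in the 3 forebrain libraries. In the dorsal midbrain, Rax was at 0.879 and 0.507 RPKM in libraries 1 and 2, and Six6 and Vax1 were at 0.79 and 1.71 RPKM in library 3. Other telencephalic or anterior genes were present in the forebrain libraries. Six3 was at 7.62, 19.9 and 15.5 RPKM in the forebrain, Neurod6, a bHLH factor of cortical neurons, at 6.64, 10.3 and 9.4 RPKM, and Emx2, a homeobox factor of the cortex and other regions, at 7.21, 19.1 and 15.5 RPKM. Of these, Emx2 was as high in the dorsal midbrain, at 13.8, 15.1 and 16.7 RPKM, and Neurod6 reached 6.31 RPKM in dorsal midbrain 3. Dlx1, of the basal forebrain and prethalamus, was at 26.1 RPKM in forebrain 1. The telencephalic and eye field markers were thus present in part in the forebrain libraries, and Rax, Six6 and Vax1 only in dorsal midbrain libraries. Genes of the diencephalon were present, among them Tcf7l2, a Wnt effector of thalamic cells, at 403, 259 and 132 RPKM in forebrain 1, 2 and 3. Forebrain 2 and 3 also held 16.2 and 20.6 RPKM of Foxa2, a floor plate factor, against 0.137 in forebrain 1, and forebrain 3 alone held Nkx2-1 of the ventral forebrain at 13.3 RPKM. In the dorsal midbrain libraries the tectal genes Pax3, Pax7 and Tal2 were present in all 3. Dorsal midbrain 3 had 378 RPKM of Tcf7l2 and 44.9 RPKM of Pax6, against at most 22.9 and 1.81 RPKM in dorsal midbrain 1 and 2, and 2.12 RPKM of En2, a midbrain and isthmus factor, against 12.497 and 13.811. The En2 paralog En1 was at 0.0383, 2.65 and 2.2 RPKM in forebrain 1, 2 and 3. In the dorsal midbrain En1 was at 0.456, 0.799 and 0.49 RPKM, below forebrain 2 and 3. The names forebrain and dorsal midbrain are used below as the labels give them. Whether forebrain 1 and dorsal midbrain 3 were exchanged, or were dissected with other borders than the rest of their groups, was not tested, and every difference between the regions rests on the labels.

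**Figure D1:**
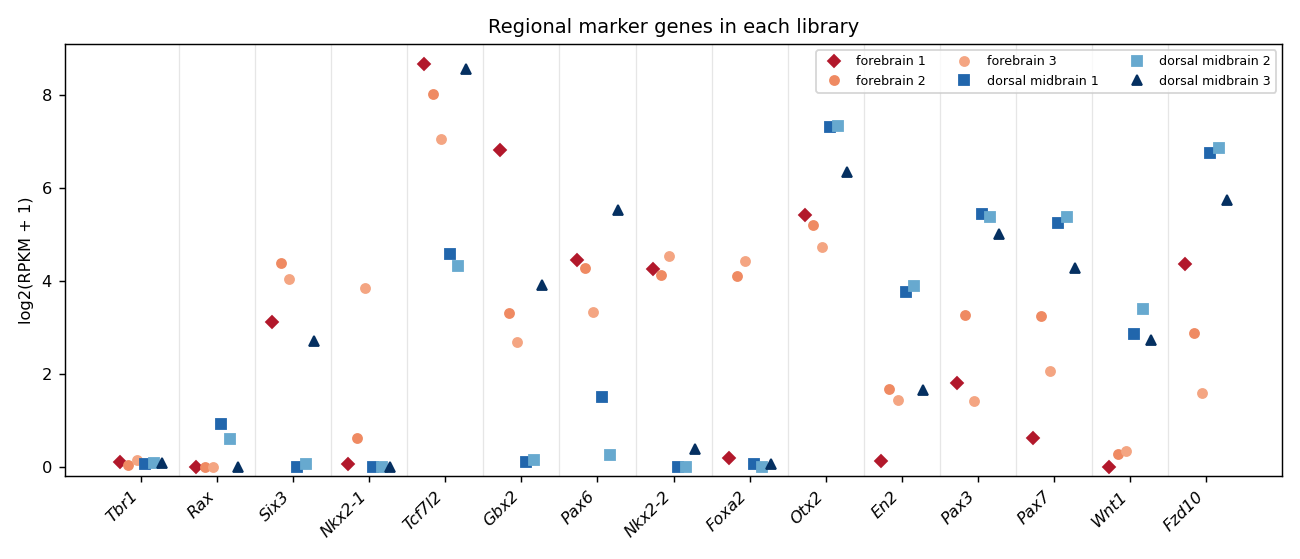
Levels of marker genes in each of the 6 libraries, on the log2(RPKM + 1) scale, with forebrain and dorsal midbrain libraries as separate symbols. Nkx2-2 separates all 3 forebrain libraries from all 3 dorsal midbrain libraries, while for Tcf7l2 and Gbx2 dorsal midbrain 3 lies among the forebrain libraries.

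With limma, 2270 of the 12982 genes differed at an adjusted p under 0.05, which is 17.5% of the genes tested. At an unadjusted p under 0.05 there were 5883 (45.3%). Of the called genes, 811 were higher in the forebrain (6.25% of those tested) and 1459 were lower (11.2%). The 3 forebrain libraries lay wholly on one side of the 3 dorsal midbrain libraries for each of the 2270 genes, compared with 46.4% of all genes tested (16.7% above and 29.7% below). Only 247 called genes were at least 2-fold higher and 423 at least 2-fold lower. Most calls were close to the threshold, 1440 of them having an adjusted p of 0.04 to 0.05 and 98 an adjusted p under 0.02. The number of calls depended on single libraries. Without forebrain 1 it was 5090 and without dorsal midbrain 3 it was 5255, whereas without forebrain 2, forebrain 3, dorsal midbrain 1 or dorsal midbrain 2 it was 4, 18, 1 and 1. Without both forebrain 1 and dorsal midbrain 3, a choice that rests on these data, 8176 genes were called, 3366 higher and 4810 lower. The 2270 genes kept their direction in each of these fits, as groups that do not overlap must. Without any 1 of forebrain 2, forebrain 3, dorsal midbrain 1 and dorsal midbrain 2, at most 2 members of a gene list below were called in either direction. The lists are described by counts and medians of their tested members, and a gene absent from one region passes the filter only through the other. List counts below stand beside the 6.25% called higher and 11.2% called lower over all genes tested. The median difference of all tested genes was -0.08, and the split between directions moved with scaling. With median-ratio scaling 1098 of 2108 calls (52.1%) and with quantile normalization 716 of 1505 calls (47.6%) were higher in the forebrain, against 35.7% without scaling.

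**Figure D2:**
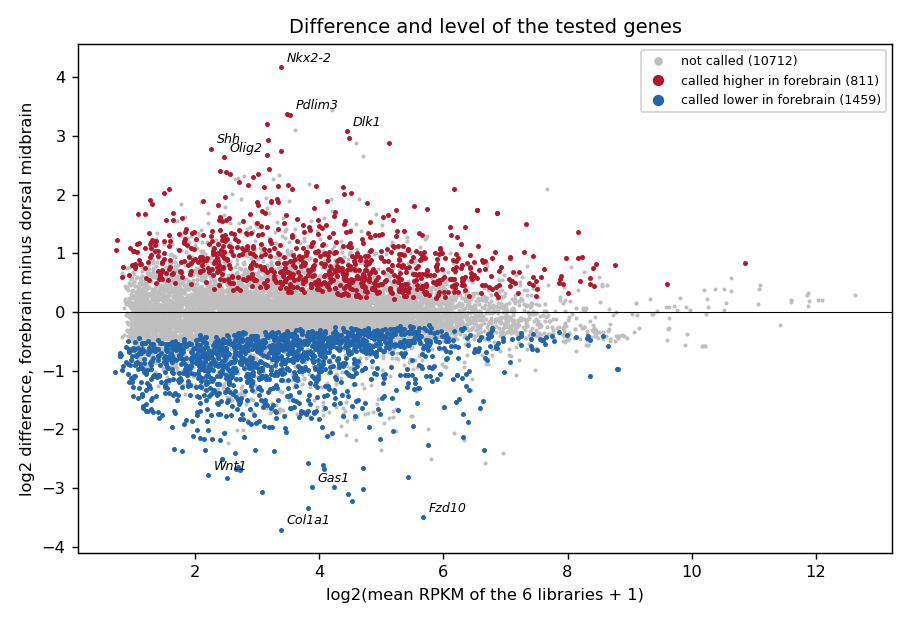
Difference between the regions (forebrain minus dorsal midbrain, log2 scale) against mean level for the 12982 genes tested, with called genes in colour and some named genes labelled. Nkx2-2 has a difference of 4.17, and Col1a1, at -3.71, is the lowest of the named genes.

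The gene with the lowest adjusted p was a ventral progenitor factor. Nkx2-2, a Sonic hedgehog-induced homeobox factor of ventral progenitors and of a zone bordering the thalamus, was at 18.1, 16.4 and 22.1 RPKM in the forebrain and at 0, 0 and 0.306 RPKM in the dorsal midbrain. These are 452, 392 and 684 reads against 0, 0 and 9, and the groups were far apart. Its mean was 18.8 ± 2.95 RPKM (SD, n = 3) in the forebrain, and the difference was 4.17 (SE 0.17, limma adjusted p = 0.0012). Of the 2270 called genes it was the only one that stayed called in all 19 alternative analyses. Its antisense neighbour Nkx2-2as was higher by 1.91 (adjusted p = 0.0102), but the sources used here do not say whether counting used strand, so reads of overlapping genes cannot be told apart. Olig2, a bHLH factor of ventral and thalamic progenitors, was at 13.9, 5.2 and 6.98 RPKM against 0.375, 0.386 and 0.615 RPKM, higher by 2.63 (SE 0.31, adjusted p = 0.0179). Olig1, its paralog, was at 2.24, 2.34 and 2.1 RPKM against at most 0.0381 RPKM, and was higher by 1.67 (SE 0.12, adjusted p = 0.0102). In bulk tissue, here and below, fewer cells of a type and less RNA per cell cannot be told apart.

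Of 13 tested members of the floor plate and ventral progenitor list, 6 rose in the forebrain, none fell and 7 were not called. The list had 18 members, and its median difference was 2.0, beside -0.08 for all genes tested. Shh, the ligand itself, was at 3.09, 4.77 and 14.9 RPKM in the forebrain and at most 0.0626 RPKM in the dorsal midbrain, higher by 2.78 (SE 0.47, adjusted p = 0.0308). Ntn1, the axon guidance cue netrin 1 secreted by the floor plate, was at 20.5, 35.9 and 59.2 RPKM against 3.09, 2.12 and 6.86 RPKM, a ratio of means of 9.58 (adjusted p = 0.0275). All 3 forebrain libraries were above the dorsal midbrain for both genes, with forebrain 1 the lowest. Foxa1, a forkhead factor of the floor plate, spread far more, with 2.35, 12.3 and 32.5 RPKM in the forebrain against 0.105, 0.0992 and 0.553 RPKM, and its difference of 3.21 had an adjusted p of 0.045. Spon1, the floor plate matrix protein F-spondin, behaved alike at 3.33, 24.9 and 31.2 RPKM against at most 0.995 RPKM (difference 3.37, adjusted p = 0.0416). Foxa1 and Spon1 were thus low in forebrain 1 but still above every dorsal midbrain library. For Lmx1a, Lmx1b, Corin and Nkx6-1 of this list, forebrain 1 was below every dorsal midbrain library. Lmx1a was at 0.207, 6.93 and 41.3 RPKM against 0.226 to 0.706 RPKM, and Nkx6-1 at 0.0537, 8.14 and 6.61 against 0.274 to 0.456 RPKM. Lmx1b was at 0.0771, 4.52 and 18.7 RPKM against 2.49 to 3.09 RPKM. Lmx1b was not called, and Lmx1a, Corin and Nkx6-1 were not tested. Sulf1, an extracellular sulfatase, was at 1.09, 24 and 40.6 RPKM against at most 0.838 RPKM, and its adjusted p was 0.0709. Without forebrain 1 and dorsal midbrain 3, 11 of the 13 were called higher and none lower. In that fit 3366 of all 12982 genes were called higher.

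Members of the Hedgehog pathway differed in both directions. Of 11 tested genes, 3 rose in the forebrain and 6 fell, with a median of -1.23. Hedgehog binds the receptor Ptch1, which is itself induced by the signal and restrains the transducer Smo, while Boc, Cdon and Gas1 are co-receptors and the Gli factors carry the signal to the nucleus. Ptch1 was at 35.6, 23.9 and 24.3 RPKM in the forebrain against 6.2, 5.13 and 14.1 RPKM, higher by 1.70 (SE 0.35, adjusted p = 0.0391). It was lower in each dorsal midbrain library than in any forebrain library, and dorsal midbrain 3 was the highest of its group. Gli1, another target, was at 8.2, 2.49 and 1.49 RPKM against 1.01, 0.65 and 2.35 RPKM, and these groups overlapped (adjusted p = 0.189). The co-receptors moved the other way. Boc was at 5.78, 5.17 and 2.49 RPKM against 57.4, 59.6 and 20.8 RPKM, lower by 3.01 on the log2 scale (difference -3.01, SE 0.45, adjusted p = 0.0248). Gas1 was at 3.53, 2.8 and 0.867 RPKM against 27.9, 32.4 and 15.5 RPKM (difference -2.98, adjusted p = 0.0211). For Cdon the groups did not overlap either, at 3.78 to 5.89 against 7.53 to 42.7 RPKM, but its adjusted p was 0.0531. Gli3, which acts mainly as a repressor without ligand, was at 4.74, 3.74 and 1.28 RPKM against 27, 24.2 and 17.9 RPKM (difference -2.58, adjusted p = 0.0215). Gli2 (-1.88, adjusted p = 0.0495), Smo (-1.23, adjusted p = 0.032) and the inhibitor Sufu (-0.68, adjusted p = 0.0451) were also lower in the forebrain.

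Other genes with the largest rises in the forebrain, by the fixed rule of size, were Pdlim3, Dlk1, Chl1, Six3, Calb2 and Ptx3. Pdlim3, an actin-associated LIM protein, was at 23.8, 18.1 and 18.2 RPKM against 0.772, 0.632 and 1.91 RPKM, a ratio of means of 18.1 (difference 3.36, adjusted p = 0.0102). Dlk1, a Delta-like membrane protein, was at 41.1, 34.6 and 36.6 RPKM against 2.04, 2.11 and 8.98 RPKM (ratio 8.56, adjusted p = 0.0244). For these the forebrain libraries were tightly grouped, and dorsal midbrain 3 was the highest of its region. Chl1, a neural cell adhesion molecule, was at 54.6, 58 and 58.6 RPKM against 3.39, 3.4 and 24.8 RPKM (difference 2.87, adjusted p = 0.0436). Calb2, the calcium-binding protein calretinin, was at 14.8, 11.3 and 26 RPKM against 0.903, 2.02 and 2.09 RPKM (difference 2.73, adjusted p = 0.0179). Ptx3, a secreted pentraxin, was at 12.8, 13.7 and 14.7 RPKM against 0.47, 0.282 and 5.57 RPKM (difference 2.67, adjusted p = 0.0423). In Chl1 and Ptx3 dorsal midbrain 3 stood well above dorsal midbrain 1 and 2 but below every forebrain library.

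Tectal and dorsal neural tube genes were the group with the most calls in the other direction. Of 23 tested members of this list of 25, 16 fell in the forebrain, none rose and 7 were not called, with a median difference of -2.19. Pax3 and Pax7, paired-box factors of dorsal progenitors, were among the 12 largest falls. Pax3 was at 2.49, 8.66 and 1.68 RPKM in the forebrain against 42.4, 40.1 and 31 RPKM in the dorsal midbrain (difference -3.10, SE 0.46, adjusted p = 0.0248). Pax7 was at 0.535, 8.46 and 3.16 RPKM against 36.8, 40.4 and 18.3 RPKM (difference -2.99, SE 0.66, adjusted p = 0.0411). Forebrain 2 held the most of both among the forebrain libraries. Tal2, a bHLH factor of midbrain GABAergic neurons, was at 31.5, 50.1 and 19.2 RPKM against 185, 181 and 133 RPKM (difference -2.36, adjusted p = 0.0219). Dmbx1, a homeobox factor of the midbrain and diencephalon, was at most 1.26 RPKM in the forebrain against 11.6, 12.45 and 6.04 RPKM (difference -2.68, adjusted p = 0.0169). The roof plate genes Msx1 (-2.16, adjusted p = 0.0174) and Gdf7 (-1.68, adjusted p = 0.0198), a homeobox factor and a BMP-family ligand, fell too. Zic1, a zinc finger factor of the dorsal neural tube, was at 92.3, 19.2 and 8.4 RPKM against 93.8, 120 and 146 RPKM and was not called (adjusted p = 0.0772); forebrain 1 was almost at the level of dorsal midbrain 1. Tfap2b, an AP-2 factor of tectal neurons, was at 1.52, 56.6 and 19.5 RPKM against 95, 102 and 54.6 RPKM, and forebrain 2 overlapped dorsal midbrain 3 (adjusted p = 0.113). Pax6 was the tested member with a positive difference (1.6, adjusted p = 0.353), with 44.9 RPKM in dorsal midbrain 3 against 9 to 20.9 RPKM in the forebrain. Lmx1a, also in this list and given above, was not tested but was higher in forebrain 2 and 3 than in the dorsal midbrain. Without forebrain 1 and dorsal midbrain 3, 22 members were called lower and 1 higher. That fit called 4810 of all 12982 genes lower. Mesenchymal, vascular and immune markers, whose values follow further on, were lower in the same libraries, and their part in this difference was not tested.

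Among 18 midbrain and isthmus genes, 8 were tested, 1 rose and 2 fell. Otx2, a homeobox factor needed for forebrain and midbrain identity, was at 41.4, 35.5 and 25.6 RPKM in the forebrain against 156, 161 and 80.1 RPKM (difference -1.88, adjusted p = 0.0286). Spry2, a feedback inhibitor of FGF signalling, was higher by 0.50 (adjusted p = 0.0434). En2 was at 0.0839, 2.19 and 1.7 RPKM against 12.497, 13.811 and 2.12 RPKM, so that forebrain 2 overlapped dorsal midbrain 3 (adjusted p = 0.0715). Its paralog En1, given above and higher in forebrain 2 and 3 than in the dorsal midbrain, was not tested.

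Wnt signalling genes fell more often than they rose, with 12 of 28 tested lower in the forebrain, 1 higher and a median of -0.42. Among the ligands, Wnt1 of the dorsal midline and isthmus was at 0, 0.215 and 0.267 RPKM against 6.26, 9.54 and 5.61 RPKM (difference -2.79, SE 0.21, adjusted p = 0.0102). Wnt2b was at 0.637, 0.956 and 0.449 RPKM against 4.52, 5.15 and 5.64 RPKM (difference -1.87, SE 0.15, adjusted p = 0.0102), and Wnt3a (-1.02, adjusted p = 0.0244) and Wnt4 (-0.67, adjusted p = 0.0494) also fell. In Wnt1 and Wnt2b the 3 dorsal midbrain libraries were of like level, dorsal midbrain 3 included. Rspo1 and Rspo3, secreted proteins that strengthen Wnt signals, fell by 2.65 and 1.85 on the log2 scale (adjusted p = 0.0337 and 0.0203). The receptor Fzd10 was at 19.6, 6.37 and 2 RPKM against 106, 114 and 52.2 RPKM (difference -3.50, adjusted p = 0.0368), while the receptor Fzd9 was higher by 0.79 (adjusted p = 0.0392). Genes that report canonical Wnt activity were lower as well. Axin2, a feedback inhibitor, was at 19.4, 9.06 and 7.9 RPKM against 38.4, 44.1 and 30 RPKM (difference -1.64, adjusted p = 0.037). Lef1, a nuclear effector, was at 22.5, 13.8 and 6.73 RPKM against 50.6, 58.9 and 31.5 RPKM (difference -1.74, adjusted p = 0.0451). Tcf7l2, another nuclear effector, did the opposite in most libraries: 403, 259 and 132 RPKM in the forebrain against 22.9, 18.9 and 378 RPKM, with dorsal midbrain 3 among the forebrain values (adjusted p = 0.191). With quantile normalization 8 Wnt genes were called lower.

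Sp5, a zinc finger factor known as a direct Wnt target, was at 2.41, 1.11 and 1.99 RPKM in the forebrain against 9.99, 15 and 4.53 RPKM (difference -1.83, SE 0.39, adjusted p = 0.0405). Its promoter is shown because it fell with the Wnt genes above and is known as their target. The window holds the 250 bases before the annotated start (RefSeq, GRCm38.p6), written 5′ to 3′ on the gene's strand, and capitals mark CTTTGA, the core of the sequence that TCF/LEF factors recognise, searched on both strands (TCAAAG on the other).
Sp5, chr2:70474673-70474922, plus strand: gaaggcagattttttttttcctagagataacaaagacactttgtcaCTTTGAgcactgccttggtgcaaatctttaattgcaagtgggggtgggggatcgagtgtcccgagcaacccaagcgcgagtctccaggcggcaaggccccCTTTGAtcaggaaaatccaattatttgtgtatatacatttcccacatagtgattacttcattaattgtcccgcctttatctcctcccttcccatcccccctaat
Both matches are on the gene's strand. This motif was found in 13.8% of 32851 such windows and in 3 of 24 windows of the Wnt list, which does not include Sp5. This promoter and those below were chosen after their values and matches had been seen, and a match describes the letters only, not a bound site or a cause.

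Some Notch and neural progenitor genes fell in the forebrain, though most were not called. Of 20 progenitor and radial glia genes tested, 8 fell and none rose, with a median of -0.73 and 5 positive differences. Vim, the intermediate filament vimentin, was at 349, 288 and 275 RPKM against 609, 584 and 591 RPKM, with little spread within either region (difference -0.97, SE 0.11, adjusted p = 0.0159). Sox3 (-1.82, adjusted p = 0.032), Sox9 (-0.81, adjusted p = 0.044) and the RNA-binding protein Msi1 (-0.86, adjusted p = 0.0366), all of progenitors, fell as well. Ptprz1, a receptor phosphatase of radial glia, went the other way at 60.1, 35.8 and 33.2 RPKM against 9.0, 6.48 and 31.6 RPKM, with groups that did not overlap but no call (difference 1.66, adjusted p = 0.0676). Sox2, a core progenitor factor, was at 76.0, 24.6 and 30.5 RPKM against 50.7, 50.1 and 34.2 RPKM (adjusted p = 0.729). Among 13 proneural and Notch genes tested, 3 fell and 1 rose, with a median of -0.87 and 4 positive differences. Of the Notch ligands, Jag1 fell by 1.71 (adjusted p = 0.0424) and Dll1 by 0.70 (adjusted p = 0.0487), while Jag2 was higher by 0.67 (adjusted p = 0.0494). The receptors Notch1 (-1.07, adjusted p = 0.0461) and Notch2 (-0.72, adjusted p = 0.0365) fell. Hes5, a repressor induced by Notch, was at 48, 31 and 26 RPKM against 148, 151 and 68.9 RPKM (difference -1.74, SE 0.35, adjusted p = 0.0384). Its promoter is shown for its Notch response, with GTGGGAA and its complement TTCCCAC, the sequence recognised by the Notch effector RBPJ, in capitals.
Hes5, chr4:154960673-154960922, plus strand: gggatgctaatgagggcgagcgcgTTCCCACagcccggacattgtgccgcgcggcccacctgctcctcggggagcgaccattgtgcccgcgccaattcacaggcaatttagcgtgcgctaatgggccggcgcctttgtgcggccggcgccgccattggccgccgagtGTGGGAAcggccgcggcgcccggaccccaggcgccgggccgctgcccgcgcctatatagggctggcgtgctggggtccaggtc
The window holds 1 match on each strand. Such a match was found in 5.42% of 32851 windows and in 1 of 16 windows of the proneural and Notch list, which does not include Hes5.

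Genes of cell division were lower in the forebrain libraries as a group, though most fell just short of or just past the threshold. Of 24 proliferation genes, all tested, 11 fell and none rose, and the median difference was -1.66, beside -0.08 for all genes. All 24 differences were negative, with adjusted p between 0.037 and 0.0711. The replication helicase gene Mcm2 was at 27.4, 13.5 and 12.6 RPKM against 69.2, 64.6 and 38.3 RPKM (difference -1.67, adjusted p = 0.0388). Mcm3, of the same complex, was at 19.6, 6.16 and 7.23 RPKM against 54.1, 48.1 and 25.8 RPKM (difference -1.97, SE 0.45, adjusted p = 0.0435). The G1 cyclin Ccnd2 was at 82.9, 39.4 and 36.6 RPKM against 138, 134 and 162 RPKM (difference -1.53, adjusted p = 0.037). The mitotic cyclin Ccnb2 was at 18, 5.64 and 7.43 RPKM against 44.3, 40.8 and 21.4 RPKM (difference -1.77, SE 0.44, adjusted p = 0.0455). In all 4 genes forebrain 1 was the highest forebrain library, and in Mcm2, Mcm3 and Ccnb2 dorsal midbrain 3 was the lowest of its region. The spindle kinases Aurka (-1.58, adjusted p = 0.0452) and Bub1 (-1.64, adjusted p = 0.0493) fell by similar amounts. Mki67, the Ki-67 antigen of cycling cells, was at 32.5, 7.46 and 7.84 RPKM against 75.8, 63.2 and 33.6 RPKM, forebrain 1 and dorsal midbrain 3 being almost equal (adjusted p = 0.0529). Top2a, a topoisomerase of dividing cells, was at 63.6 RPKM in forebrain 1 and 62.8 RPKM in dorsal midbrain 3 (adjusted p = 0.0546). Summed over the list, the forebrain libraries held 697, 247 and 268 RPKM and the dorsal midbrain libraries 1686, 1562 and 792 RPKM, so the groups did not overlap but forebrain 1 was nearer to dorsal midbrain 3 than to forebrain 2 or 3. Without these 2 libraries all 24 were called lower, with quantile normalization 6 were, and without forebrain 2, forebrain 3, dorsal midbrain 1 or dorsal midbrain 2 none was. The fit without forebrain 1 and dorsal midbrain 3 called 4810 of all 12982 genes lower.

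Promoters of 4 of these genes are shown because they share a motif and moved together. The windows are of the same kind (RefSeq, GRCm38.p6), and capitals mark CCAAT or its complement ATTGG, the sequence recognised by the factor NF-Y.
Ccnb2, chr9:70421555-70421804, minus strand: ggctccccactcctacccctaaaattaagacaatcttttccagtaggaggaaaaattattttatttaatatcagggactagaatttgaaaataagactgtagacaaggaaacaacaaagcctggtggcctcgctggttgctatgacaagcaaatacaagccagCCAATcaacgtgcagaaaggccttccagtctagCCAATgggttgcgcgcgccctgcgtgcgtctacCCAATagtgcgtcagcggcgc
Aurka, chr2:172370571-172370820, minus strand: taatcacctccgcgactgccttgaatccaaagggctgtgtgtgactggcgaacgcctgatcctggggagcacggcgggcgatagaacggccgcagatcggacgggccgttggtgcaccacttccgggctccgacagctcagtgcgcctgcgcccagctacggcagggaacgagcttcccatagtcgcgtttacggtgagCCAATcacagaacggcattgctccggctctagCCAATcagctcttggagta
Bub1, chr2:127831860-127832109, minus strand: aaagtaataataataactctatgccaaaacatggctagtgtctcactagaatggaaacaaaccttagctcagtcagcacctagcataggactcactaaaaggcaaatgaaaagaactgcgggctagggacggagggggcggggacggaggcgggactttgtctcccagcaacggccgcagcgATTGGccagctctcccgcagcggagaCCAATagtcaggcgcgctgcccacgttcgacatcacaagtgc
Mcm3, chr1:20820313-20820562, minus strand: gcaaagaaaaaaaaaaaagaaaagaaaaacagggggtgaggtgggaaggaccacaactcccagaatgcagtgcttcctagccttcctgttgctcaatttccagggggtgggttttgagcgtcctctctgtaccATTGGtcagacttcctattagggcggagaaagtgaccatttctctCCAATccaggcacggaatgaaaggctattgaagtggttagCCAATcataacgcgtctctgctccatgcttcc
The Ccnb2 window holds 3 matches, the Aurka window 2, the Bub1 window 2 and the Mcm3 window 3. Of the 24 genes, 20 were matched to the promoter table, with 21 windows, and 19 of these windows (90.5%) held the motif, compared with 33.8% of 32851 windows at large. That share describes the list as drawn up, called members or not.

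Neuronal genes showed the opposite direction. Of 23 pan-neuronal genes tested, 10 rose in the forebrain and none fell, with a median of 0.59. The list had 24 members, of which Map2 was not matched to the table. Mapt, the axonal protein tau, was at 150, 267 and 289 RPKM against 56, 69.6 and 128 RPKM (difference 1.5, SE 0.36, adjusted p = 0.0451). Gap43, a growth cone protein, was at 403, 458 and 472 RPKM against 197, 227 and 351 RPKM (difference 0.82, adjusted p = 0.0479). Scg2, the neuropeptide precursor secretogranin II, was at 6.69, 16 and 24.6 RPKM against 2.57, 1.99 and 2.65 RPKM, the largest rise in the list (2.14, adjusted p = 0.0362). Stmn3, Ina, Nsg1, Nsg2, Snap25, Scg3 and Gng3 rose by 0.56 to 0.96. Tubb3, the neuronal tubulin, was at 1294, 1312 and 1327 RPKM against 1026, 1155 and 1194 RPKM and was not called (difference 0.22, adjusted p = 0.121). Summed over the list, the forebrain held 4211, 5131 and 5286 RPKM and the dorsal midbrain 2788, 3105 and 3883 RPKM. The neuronal sum was thus lowest in forebrain 1 among the forebrain libraries and highest in dorsal midbrain 3 in its region, the reverse of the proliferation sum. Without these 2 libraries 22 members were called higher and 1 lower, and with quantile normalization 3 were higher. The fit without these 2 libraries called 3366 of all 12982 genes higher.

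**Figure D3:**
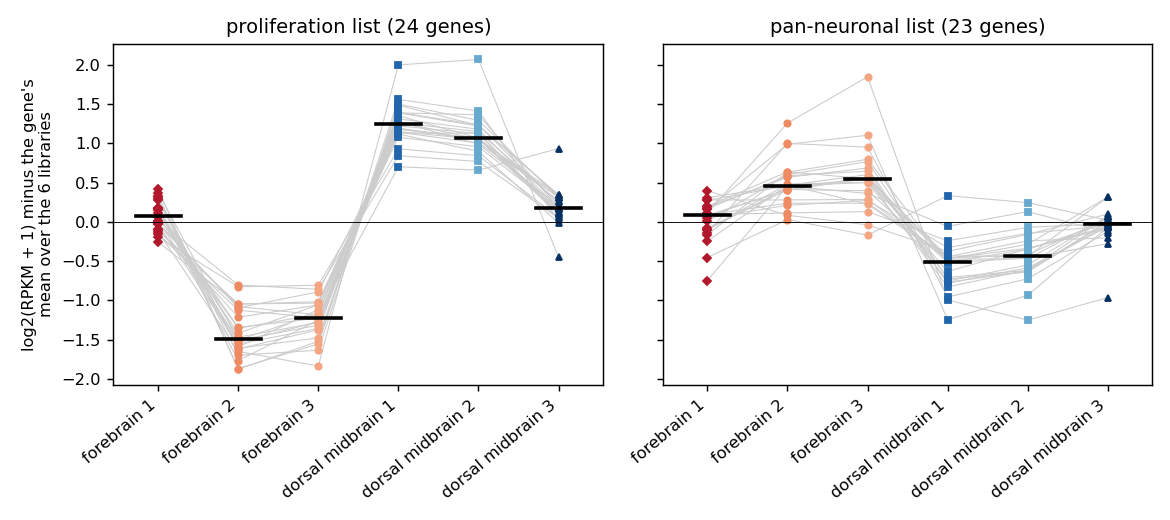
For each gene of the proliferation list (left) and the pan-neuronal list (right), log2(RPKM + 1) minus the gene's mean over the 6 libraries; points are genes, grey lines join a gene across libraries and black bars are medians. Forebrain 1 (0.07 for proliferation, 0.08 for neuronal genes) and dorsal midbrain 3 (0.17 and -0.02) lie near 0 for both lists, between the other libraries of the regions.

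Ion channel and synapse genes of neurons rose with them, with 13 of 22 tested higher in the forebrain, 1 lower and a median of 0.92. Slc24a3, a sodium-calcium exchanger, was at 12.4, 10.5 and 10.8 RPKM against 2.8, 2.8 and 4.92 RPKM (difference 1.47, SE 0.19, adjusted p = 0.0207). Scn3b, a sodium channel subunit, was at 24.5, 45.8 and 53.2 RPKM against 9.22, 11.1 and 20.3 RPKM (difference 1.54, adjusted p = 0.0446). Gria2, an AMPA receptor subunit, was at 19.2, 29.1 and 23.5 RPKM against 6.41, 7.58 and 15.5 RPKM (difference 1.28, adjusted p = 0.0452). In each of the 3 genes dorsal midbrain 3 was the highest dorsal midbrain library and still below the forebrain. Gabra2, a GABA receptor subunit, was the member that fell, at 8.86, 10.8 and 11 RPKM against 13.9, 17 and 13.6 RPKM (difference -0.50, adjusted p = 0.0457).

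Over all genes tested, 17.5% were called. The shares of glutamatergic and GABAergic genes called were near that. Of 11 glutamatergic and projection neuron genes tested, 2 rose. Slc17a6, the vesicular glutamate transporter of most subcortical neurons, was at 48.6, 40.3 and 47.9 RPKM against 29.2, 27.1 and 32.8 RPKM (difference 0.60, SE 0.11, adjusted p = 0.0335). Slc17a8, a weakly expressed relative, was at 1.61, 1.01 and 1.16 RPKM against at most 0.0896 RPKM (difference 1.05, adjusted p = 0.022). Pou4f1, a factor of tectal projection neurons, was at 4.1, 13 and 7.78 RPKM against 71.7, 75.6 and 14.1 RPKM (adjusted p = 0.0538), and forebrain 2 was close to dorsal midbrain 3. Of 13 GABAergic genes tested, 2 fell (Tal2 and Sox14) and none rose, and the GABA-synthesising enzyme gene Gad1 was at 10.7, 26.2 and 20.8 RPKM against 12.3, 14.7 and 17.9 RPKM (adjusted p = 0.519). Among 8 dopaminergic neuron genes tested, Th rose, at 2.25, 4.24 and 6.39 RPKM against 0.605, 0.571 and 0.793 RPKM (difference 1.6, SE 0.29, adjusted p = 0.0337). Ddc, the enzyme after Th, was at 2.14, 20.7 and 24.4 RPKM against 1.11, 1.6 and 1.82 RPKM (adjusted p = 0.0707). The dopaminergic factor Pitx3 reached 1.66 and 1.17 RPKM in forebrain 2 and 3 and was listed at 0 in forebrain 1, and the dopamine transporter Slc6a3 did likewise at 1.14 and 1.34 RPKM. Of 11 neuropeptides tested, Pnoc, the nociceptin precursor, fell, at 12, 16.1 and 12.1 RPKM against 24, 32.7 and 29.8 RPKM (difference -1.05, adjusted p = 0.0248).

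Among the 16 diencephalic genes tested of 18, 3 rose, 2 fell and 11 were not called, with a median of -0.12. Over all genes tested, 6.25% were called higher and 11.2% lower. Nkx2-2 and Olig2 are given above. Foxp2, a forkhead factor of thalamic and other projection neurons, was at 43.7, 23.8 and 29.5 RPKM against 4.24, 4.07 and 14.4 RPKM (difference 2.12, adjusted p = 0.0407). Sox14, an HMG-box factor of thalamic and tectal interneurons, fell by 1.44 (adjusted p = 0.0365), and the homeobox factor Barhl2 fell by 1.13 (adjusted p = 0.0441). Gbx2, a homeobox factor of thalamic neurons, was at 111, 8.89 and 5.44 RPKM against 0.0776, 0.11 and 14.1 RPKM, so forebrain 1 was far above the rest and dorsal midbrain 3 lay between (adjusted p = 0.156). Olig3, of thalamic progenitors, was at 39.6 RPKM in forebrain 1 and at 0.558 to 3.72 RPKM in the other 5 libraries. Lhx2, a LIM homeobox factor of thalamus and tectum, was at 169, 33.7 and 16.6 RPKM against 97.9, 103 and 58.5 RPKM, spanning the dorsal midbrain range on both sides. The thalamic genes Gbx2, Olig3 and Lhx2 were thus at their highest in forebrain 1, and none of them was called.

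Of 19 telencephalic genes 8 were tested, and 1 rose and 1 fell. Six3, a homeobox factor of the anterior forebrain, was at 7.62, 19.9 and 15.5 RPKM against 0, 0.0431 and 5.5 RPKM (difference 2.93, SE 0.76, adjusted p = 0.0483), and forebrain 1 and dorsal midbrain 3 were close. Nr2e1, an orphan nuclear receptor of progenitors, was at 11.8, 5.2 and 1.98 RPKM against 23.9, 21.3 and 17.6 RPKM (difference -1.81, adjusted p = 0.0498). Dlx1, of GABAergic cells in the basal forebrain and prethalamus, was at 26.1, 0.037 and 5.89 RPKM against 0.03, 0.0283 and 2.32 RPKM, so that forebrain 2 was no higher than the dorsal midbrain (adjusted p = 0.229). Of 20 hypothalamic and eye field genes 7 were tested, and Sim1, a factor of hypothalamic neurons, rose beside Six3, at 1.46, 2.85 and 7.58 RPKM against at most 0.0116 RPKM (difference 2.10, adjusted p = 0.0384). Of 17 hindbrain genes 2 were tested and neither was called.

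**Figure D4:**
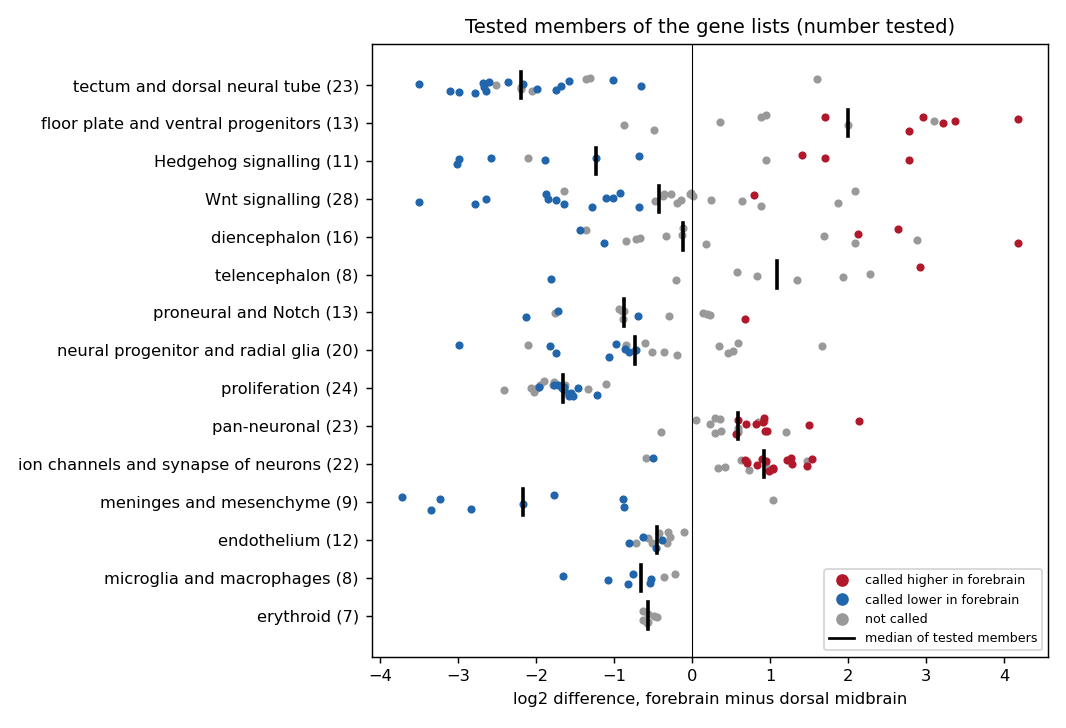
Differences of the tested members of each gene list (forebrain minus dorsal midbrain, log2 scale), with called members in colour and the list median marked. Tectal and dorsal genes (median -2.19), mesenchymal genes (-2.16) and proliferation genes (-1.66) lie below 0, and floor plate genes (2.0) and neuronal channel genes (0.92) above it.

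Markers of other cell types in the tissue also differed. Collagens of meninges and mesenchyme gave 3 of the 12 largest falls: Col1a1 was at 1.19, 0.133 and 0.155 RPKM in the forebrain against 21.7, 22.5 and 11.1 RPKM in the dorsal midbrain (difference -3.71, SE 0.35, adjusted p = 0.0142). Col1a2 fell by 3.34 (adjusted p = 0.0159), Col3a1 by 3.23 (adjusted p = 0.0257) and the matrix proteoglycan Lum by 2.83 (adjusted p = 0.0179). Of 9 mesenchymal genes tested, 8 fell and none rose, and the list summed to 14.6 to 20.1 RPKM in the forebrain and 70.1 to 132.8 RPKM in the dorsal midbrain, where dorsal midbrain 3 was lowest. The exception was Postn, a matrix protein, at 0.18, 9.37 and 9.97 RPKM against 1.65, 2.76 and 0.561 RPKM (adjusted p = 0.383). Of 8 microglia and macrophage genes tested, 6 fell, among them the macrophage mannose receptor Mrc1 (-1.65, adjusted p = 0.0139) and the receptor Csf1r (-0.54, adjusted p = 0.0404), and their sum was 10.6 to 12.6 against 23.0 to 25.3 RPKM. Of 12 endothelial genes 4 fell, among them the VEGF receptor Kdr (-0.62, adjusted p = 0.0248), with sums of 86.8 to 92.6 against 103.8 to 139.9 RPKM. Of 7 erythroid genes none was called, and their sums were 1279 to 1427 against 1553 to 2714 RPKM. The beta globin genes Hbb-b1 and Hbb-b2 in that list are near-identical copies, so their separate values are uncertain. The defining choroid plexus gene Ttr was at most 0.525 RPKM in all 6 libraries, and the muscle factors Myod1 and Myog were at or near 0. All these sums were lower in every forebrain library than in every dorsal midbrain library, as were the sums of the tectal and proliferation lists. The part that mesenchymal, vascular or immune cells played in those differences was not tested.

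Further large falls, by the same rule of size, were Slc45a3, Boc, Gas1 and Crabp1, of which Boc and Gas1 are given above. Crabp1, a retinoic acid-binding protein, was at 7.74, 16.4 and 5.58 RPKM against 93.6, 89.6 and 40.3 RPKM (difference -2.82, adjusted p = 0.0286). Slc45a3, a solute carrier, was at 1.15, 0.604 and 0.164 RPKM against 18.4, 19.6 and 5.04 RPKM (difference -3.08, adjusted p = 0.0286). For both, dorsal midbrain 3 was the lowest of its region and above all forebrain libraries. Of 19 Eph receptors and ephrins tested, which guide axons by contact, 3 fell and none rose: Epha2 (-2.36, adjusted p = 0.0435), Ephb4 (-1.22, adjusted p = 0.0218) and Efnb1 (-0.87, adjusted p = 0.0215). Over all genes tested, 11.2% were called lower.

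Because forebrain 1 and dorsal midbrain 3 resembled each other, the 2 libraries were also set side by side, as values with no test. At least 2-fold apart between them were 324 genes, 101 higher and 223 lower in forebrain 1, compared with 1920 genes (901 higher and 1019 lower) between the means of forebrain 2 and 3 and of dorsal midbrain 1 and 2. Of the 1920, 1390 (72.4%) had the same sign in forebrain 1 minus dorsal midbrain 3. Of 199 genes past 2-fold in both, 172 had the same sign and 27 the opposite one. Across the 12982 genes the Pearson r of the 2 differences was 0.339, and the 2270 called genes had the same sign in both, as their separation requires. Higher in forebrain 1 than in dorsal midbrain 3 were Nkx2-2, Olig2 and Pdlim3, as in the comparison of regions, but also Sp9 (43.3 against 3.69 RPKM), a zinc finger factor of GABAergic progenitors, Olig3 (39.6 against 3.72 RPKM) and Gbx2 (111 against 14.1 RPKM). Lower in forebrain 1 were Pax3, Pax7 and Wnt1, together with Tfap2b (1.52 against 54.6 RPKM), Barhl1 (0.483 against 19.3 RPKM) and Cartpt (0.94 against 19.7 RPKM), the last a neuropeptide precursor. Barhl1, a homeobox factor, was at 19 and 35.2 RPKM in forebrain 2 and 3, so it was low in forebrain 1 among all 6 libraries. Pcp4l1, a small protein related to the calmodulin-binding Pcp4, was at 1.4, 1.46 and 1.67 RPKM against 8.56, 8.32 and 14.2 RPKM, a separation present in every library.

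**Figure D5:**
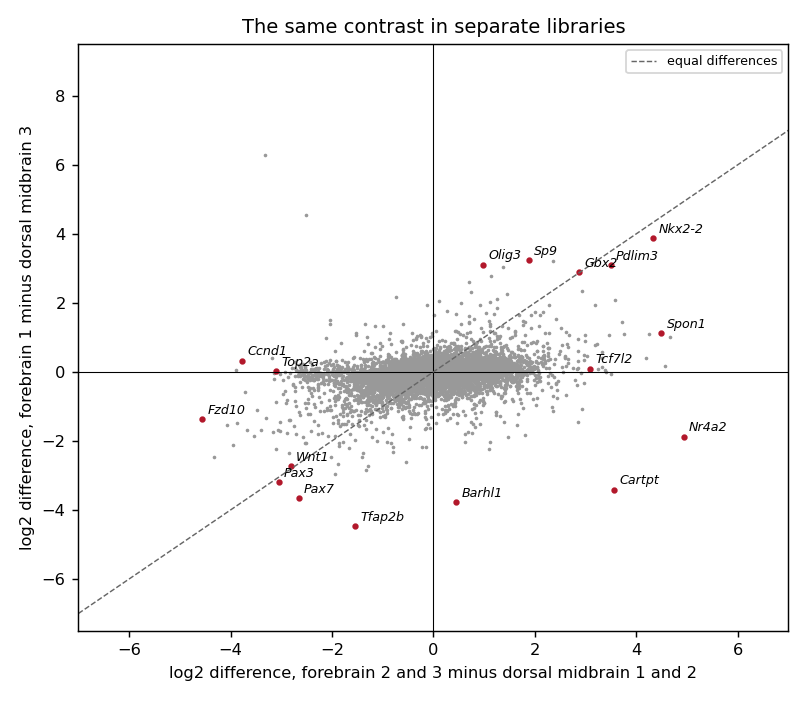
For each gene, forebrain 1 minus dorsal midbrain 3 (vertical axis) against the mean of forebrain 2 and 3 minus the mean of dorsal midbrain 1 and 2 (horizontal axis), both on the log2 scale. The cloud is wider along the horizontal axis, with 1920 genes past 2-fold there and 324 along the vertical axis, and the Pearson r across genes is 0.339.

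Some genes lay in opposite orders in the 2 pairings, so their groups overlapped and none was called. Nr4a2, a nuclear receptor of dopaminergic and other neurons, was at 8.15, 48.2 and 60.6 RPKM in the forebrain against 0.827, 0.781 and 32.6 RPKM in the dorsal midbrain (adjusted p = 0.153). Cartpt was at 29.7 and 36.4 RPKM in forebrain 2 and 3 against 2.48 and 1.34 RPKM in dorsal midbrain 1 and 2. Dmrta2, a factor of cortical and midbrain progenitors, was at 9.43 and 16.1 RPKM in forebrain 2 and 3, at 0.0668 RPKM in forebrain 1 and at 0.256 to 1.04 RPKM in the dorsal midbrain. In the other direction the largest were Mir3962, Ccnd1, Xist and mitotic or replication genes. Ccnd1, the G1 cyclin, was at 64.5, 21.7 and 19 RPKM against 284, 298 and 51.2 RPKM (adjusted p = 0.0635). Rrm2, a ribonucleotide reductase subunit, was at 49.1, 9.24 and 12.1 RPKM against 110, 99 and 37.1 RPKM. In Ccnd1 and Rrm2 forebrain 1 exceeded dorsal midbrain 3 while forebrain 2 and 3 were the lowest of the 6. Xist, the RNA of the inactive X chromosome in females, was at 88.4, 55.1 and 0.096 RPKM in the forebrain against 78.7, 75.2 and 0.154 RPKM. Forebrain 3 and dorsal midbrain 3 held very little Xist (21 and 32 reads), so each region had 1 such library, and Xist did not separate the regions (adjusted p = 0.971). Xist and the Y-linked genes Ddx3y, Eif2s3y, Kdm5d and Uty together summed to 41.9 RPKM in forebrain 3 and 53.7 RPKM in dorsal midbrain 3. In the other libraries of the 2 regions Xist made up nearly all of that sum.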

How the data were processed

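The authors deposited 1 table of RPKM values for 24264 genes in 15 libraries, of which the 3 forebrain and 3 dorsal midbrain columns, matched to their samples by title, were compared. Per the submitters' processing notes, reads were aligned with Bowtie to the mouse build mm9. The version of Bowtie, the counting, its strand setting and the annotation are not stated in any source used here, so genes that share reads with copies or with overlapping neighbours are uncertain.

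Genes with at least 1 RPKM in at least 3 of the 6 libraries were tested on log2(RPKM + 1), computed from the deposited RPKM, with limma 3.58.1 (R 4.3.3), using a variance trend, empirical Bayes moderation, two-sided tests and Benjamini-Hochberg adjustment over all 12982 genes. A gene was called at an adjusted p under 0.05. The procedure was tested on simulated data in which the libraries of a group differed only by random spread. That test does not cover libraries that lie between the groups, such as forebrain 1 and dorsal midbrain 3. Whole reads were recovered from the RPKM steps for 16604 of 16612 eligible genes (limma-voom on them called 1779 genes).

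Named genes were the 12 highest and 12 lowest differences among called genes with at least 5 RPKM on the higher side, up to 4 called members of each list, up to 6 abundant members of 7 lists, and 10 per direction for the 2 pairings that single out forebrain 1 and dorsal midbrain 3. Others named were chosen after their values were seen. The members, gene lists and rules were chosen with earlier results of these data known, so list counts are descriptions and no list was tested as a set. Lists share some members. Some members of the lists are counted but not reported by name here. Promoter windows (250 bases) came from RefSeq on GRCm38.p6, another build than that of the reads, and were matched by gene symbol.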

Additional observations from a re-analysis of the deposited data

How the results depend on the processing

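The number of called genes, 2270, varied with the processing. It was 957 with no filter on low values, 1387 with a minimum of 5 RPKM in 3 libraries and 1505 after quantile normalization. It was 3635 in a fit of all 15 libraries, 8357 in a fit of 12 libraries without forebrain 1, dorsal midbrain 3 and alar plate 3, 8176 without forebrain 1 and dorsal midbrain 3, and 9298 with library weights, which were lowest for those 2 libraries (0.226 and 0.225). Leaving out 1 library in turn gave 1 to 5255. Other pseudocounts, median-ratio scaling, no variance trend and limma-voom on recovered reads gave 1563 to 2163. The cause was not tested. With the replicate block 4200 genes were called. Deviations of same-numbered libraries from their region means correlated at 0.389, -0.209 and 0.258, and forebrain 2 went best with dorsal midbrain 3 (0.343). Each region mean is of 3 libraries, so 1 library far from its group weighs on all the deviations. These correlations therefore do not settle whether the numbers pair the samples.

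For the 77 named genes that were called, 1050 values under alternatives kept their call, 398 lost it and none reversed. For the 47 not called, 193 values became called and 20 changed sign. Those were Barhl1 (0.45 with 12 libraries and without forebrain 1 and dorsal midbrain 3, -1.87 to 0.43 leaving out 1 library), Emx2 (0.24 in the same 2 fits, 0.19 with library weights, -0.47 to 0.17 leaving out 1), Irx1 (0.017 with library weights), Otx1 (0.77 in the same 2 fits, 0.84 with library weights, -0.45 to 0.63 leaving out 1), Tsix (-1.63 to 1.25 leaving out 1) and Xist (-2.14 to 1.89 leaving out 1). The median of each list kept its sign under both other scalings except neuropeptides (-0.02, then 0.05 and 0.03). Depth limits weak genes: at 3 reads a gene of median length is at about 0.1 RPKM.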
